A study of Saccharomyces pastorianus Weihenstephan 34/70 with 7 samples.

Results

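The comparison described here set maltose wort against glucose wort when both held Flavourzyme, a mixture of peptidases from the mould Aspergillus oryzae. It rests on 3 of the 7 arrays of the series: the single array of the maltose wort with Flavourzyme and the 2 arrays of the glucose wort with Flavourzyme. The 4 remaining arrays, 2 of maltose wort and 2 of glucose wort, both without Flavourzyme, show the same wort comparison in the absence of the enzyme. The genes followed were the 5635 S. cerevisiae genes that a probe set of the array names alone. They came from 5685 of the 10928 probe sets, and where a gene had several (48 genes), the one with the highest mean over all arrays was used.

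All 4 groups were fermentations by the flocculent, bottom-fermenting lager strain Weihenstephan 34/70 in wort of 21 °Plato, brought to that gravity with either maltose syrup or glucose syrup. RNA was taken in stationary phase and hybridised to a 1-colour Affymetrix array that carries probe sets of S. cerevisiae and S. pombe. The paper states that the exact sampling time was not the same for both syrups, nor with and without the enzyme. A difference in sampling time therefore cannot be told apart from one of syrup or enzyme. The question was how much of the response to the sugar syrup was still seen when a peptidase released amino nitrogen into the wort. Nothing in the labels says whether the duplicates came from separate fermentations, so p-values measure only the spread between these samples. The maltose wort with Flavourzyme has no replicate. Lager yeasts are hybrids of S. cerevisiae with another Saccharomyces species, and the array was designed on S. cerevisiae, so transcripts of the other parent are read only as far as they bind these probes.

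As background, wort carries maltose as its main sugar, with less glucose, fructose and maltotriose. Yeast takes up hexoses through a family of Hxt carriers, and glucose, sensed through Snf3, Rgt2 and the Snf1 kinase, sets which of these carriers and which genes for other sugars and for respiration are transcribed. Free amino acids are taken up through permeases under separate nitrogen control, and proline, plentiful in wort, is usually a poor nitrogen source that needs proline oxidase and oxygen for its breakdown. Late in a brewing fermentation the cells are short of oxygen, and genes for sterol import and for anaerobic cell wall mannoproteins are then active.

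The signals are log2 values. The S. cerevisiae genes had array medians between 9 and 9.28, and the S. pombe probe sets, which read no gene of this yeast, had a 95th percentile that lay between 4.75 and 5.23 on each array and at 4.95 over the array means. Of the 5635 genes, 225 were below 4.95 in both Flavourzyme groups. The duplicates differed in tightness: the median SD of a gene was 0.137 in glucose wort with Flavourzyme, 0.0598 in maltose wort without it and 0.369 in glucose wort without it. Across genes the maltose Flavourzyme array correlated with the 2 glucose Flavourzyme arrays at r = 0.907 and 0.908. It correlated with the maltose controls at 0.935 and 0.935 and with the glucose controls at 0.948 and 0.883. Its closest array was thus glucose control 1. Duplicates correlated at 0.988 in glucose wort with Flavourzyme, 0.997 in maltose wort without it and 0.928 in glucose wort without it. Glucose control 1 was therefore closer to the maltose Flavourzyme array than to its own duplicate. Glucose control 1 enters the shared spread and every contrast that uses the glucose controls. The mean of 17 rRNA probe sets was 9.61 on the maltose Flavourzyme array, against 13.2 and 12.2 on the glucose Flavourzyme arrays, and 8.70 and 8.74 on the maltose controls, against 11.2 and 11.7 on the glucose controls. The lower rRNA signal thus went with maltose wort in both comparisons, and its part in the gene results was not tested.

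With Flavourzyme present, maltose wort and glucose wort still differed in genes of sugar uptake, glucose signalling and anaerobic growth. Of 15 hexose transporter genes 5 were lower in maltose wort, as were SUC2 for invertase and 4 of 27 glucose sensing and repression genes, and 6 of 14 genes for anaerobic mannoproteins and sterol import were higher. Cytoplasmic ribosomal protein genes, higher in maltose wort without the enzyme, had a median difference of -0.07 with it, against 0.24 over all genes. In the fit over all 7 arrays (limma, Benjamini-Hochberg over 5635 genes), 164 genes, 2.91% of those tested, passed an adjusted p of 0.05 between maltose and glucose wort with Flavourzyme. Of these 102 (1.81%) were higher and 62 (1.1%) were lower in maltose wort. At an unadjusted p under 0.05 there were 1735 genes. Without Flavourzyme 1056 genes (18.7%) were higher and 553 (9.81%) lower in maltose wort. The 2 counts are not a measure of how strong the wort effect was, because the comparison with Flavourzyme has 3 arrays and that without it has 4. In bulk samples such as these, fewer cells of a kind and less of a transcript in each cell cannot be told apart.

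The split by direction depended on scaling. After the quantile normalization was repeated over S. cerevisiae probe sets alone, 158 genes were higher and 195 lower with Flavourzyme, and after each array was centred on its median gene, 33 were higher and 58 lower. Of the 164 genes called as deposited, 138 were still called after the repeated quantile normalization and 87 after centring. The median difference over all genes was 0.24 with Flavourzyme as deposited, and 0.0371 and 0.0478 under those scalings. Differences are therefore to be read against a shift of 0.24 on the log2 scale. The number of calls also changed with single arrays: it was 3049 without either glucose control array and 0 without either array of the glucose Flavourzyme group or of the maltose control group. Leaving out a control array cannot change a difference with Flavourzyme, so a sign could turn only without a glucose Flavourzyme array. In those fits, which use the same maltose array, all 164 differences kept their sign.

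Counts that need no estimate of spread were also taken. On the log2 scale 420 genes (7.45%) lay over 1.301, the fold limit used in the study's methods, above both glucose Flavourzyme arrays, and 219 (3.89%) lay that far below both. The limit equals -log10 of 0.05, so it may be a p limit carried over to fold changes, and it was used as written. The 420 and 219 became 235 and 309 after the repeated quantile normalization, and 257 and 314 after centring. With no limit, 3136 genes (55.7%) were above both glucose arrays and 1838 (32.6%) below both, and these shares were 46.2% and 41.8% after the repeated quantile normalization and 46.5% and 42% after centring. Without replication of the maltose array these counts describe 3 arrays only.

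Of the 164 genes called with Flavourzyme, 87 were also called in the same direction without it, 45 higher and 42 lower. That is 53% of the genes called with Flavourzyme and 5.41% of those called without it. The share among the genes called lower with Flavourzyme was 67.7%, against 44.1% among those called higher. Over all genes 9.81% were called lower and 18.7% higher without Flavourzyme. Both comparisons use the same estimate of the spread of a gene, so a gene with a small spread is more readily called in both. Read from the other side, 478 genes were called higher in maltose wort without Flavourzyme and past the fold limit, and their median difference was 0.62 with Flavourzyme, against 1.62 without it. The genes were chosen by their value without Flavourzyme, which alone makes that value the larger. Of these, 73.6% lay above both glucose arrays with Flavourzyme and 14.2% lay above both by more than the limit. The 280 genes called lower past the limit without Flavourzyme had a median of -1.02 with it, against -1.83 without it, and 82.9% of them lay below both glucose arrays. Over all genes the wort differences with and without Flavourzyme, which share no array, had a Pearson r of 0.51 and a Spearman rho of 0.494, given as a description across genes, which are not independent.

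**Figure D1:**
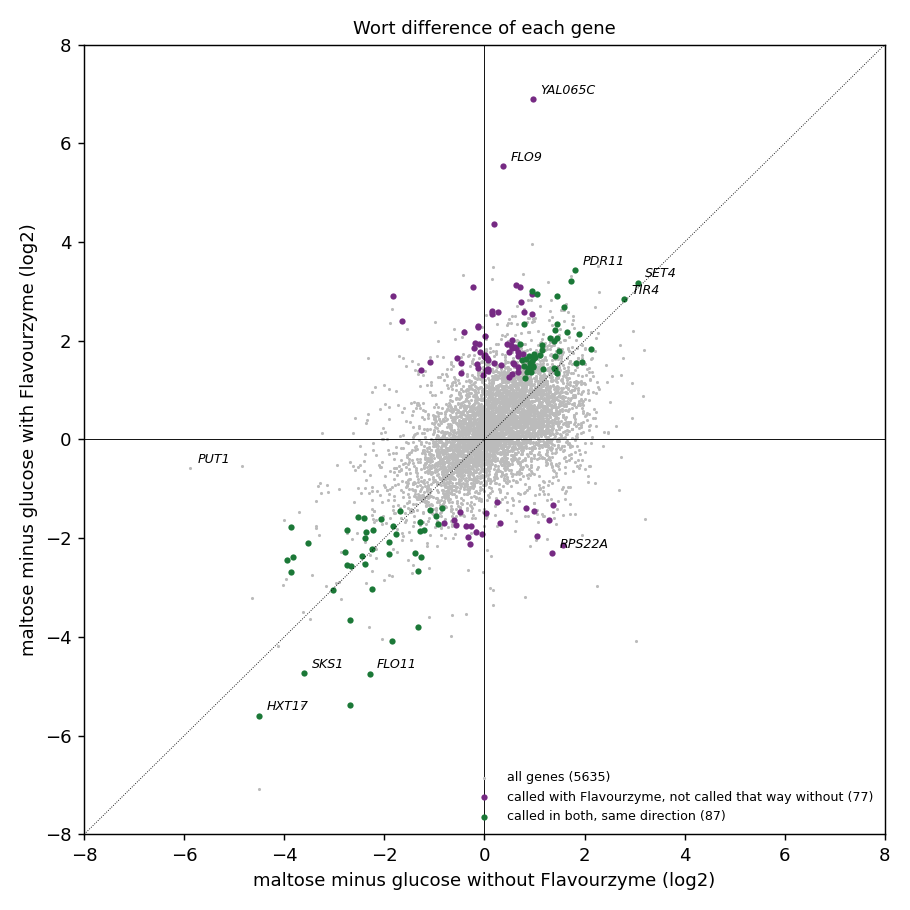
Each point is a gene, with its maltose minus glucose difference (log2) without Flavourzyme on the x axis and with Flavourzyme on the y axis, and the dotted line marks equal differences. Green points (87) were called in both comparisons in the same direction and purple points (77) were called with Flavourzyme but not in that direction without it; HXT17 and SKS1 lie low on both axes, PUT1 lies far to the left near 0 on the y axis, and FLO9 lies high near 0 on the x axis.

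Hexose transporter genes were among those called in both comparisons. Of 15 measured, 5 were called lower with Flavourzyme (1.1% over all genes) and none higher. Of the 15, 11 lay below both glucose arrays (32.6% over all genes), and the median difference was -2.30, against 0.24 over all genes. In both Flavourzyme groups 3 of the 15 were below 4.95, where signals have no order. Without Flavourzyme 9 were called lower (9.81% over all genes), the median was -1.42, and 12 of the 15 had the same sign with and without it. HXT17 had a signal of 7.10 in maltose wort with Flavourzyme, against 12.55 and 12.84 in glucose wort with Flavourzyme, and 6.13 and 6.21 in maltose wort, against 11.21 and 10.14 in glucose wort, without it. The maltose arrays were far below the glucose arrays in both comparisons, with a difference of -5.60 with Flavourzyme (SE 0.455, limma adjusted p = 0.026) and -4.50 without. HXT13, a close relative of HXT17, had 4.31 in maltose wort with Flavourzyme, which is in the range of the S. pombe probe sets, against 9.79 and 9.60 in glucose wort (measured difference -5.38, adjusted p = 0.044, at least 28.7-fold higher in glucose wort when set against that range). The probe sets of HXT17, HXT13 and HXT7 are of the kinds that can bind several transcripts, so these values may be sums over relatives.

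HXT3, which encodes a low-affinity glucose carrier and is read by a probe set of its own, had 8.44 in maltose wort with Flavourzyme, against 12.51 and 12.55 in glucose wort with Flavourzyme. Its difference was -4.09 (SE 0.476, adjusted p = 0.044), and -1.86 without Flavourzyme, where maltose wort had 9.45 and 9.43, against 10.71 and 11.89 in glucose wort. The size of the difference was not distinguishable between the 2 settings (adjusted p = 0.147 for the difference of the wort effects). HXT1 (-2.30) and HXT7 (-3.81) were also called lower with Flavourzyme and without it. The largest difference in the family, -7.08 for HXT2, a carrier made at low glucose, was not called with Flavourzyme (adjusted p = 0.0591): its maltose signal was 6.11, against 13.25 and 13.12 in glucose wort, but its 2 glucose controls were 9.84 and 13.78, and that spread enters the fit. HXT5, a carrier of slowly growing cells, was the exception in direction, with 12.65 in maltose wort with Flavourzyme, against 11.26 and 11.89 in glucose wort, and it was not called (difference 1.07, adjusted p = 0.132), while it was called lower without Flavourzyme (-2.19).

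Genes of other sugars and of glucose signalling followed. SUC2, the gene of invertase, which splits sucrose outside the cell, had 10.96 in maltose wort with Flavourzyme, against 13.32 and 13.68 in glucose wort with Flavourzyme. The difference was -2.54 (SE 0.384, adjusted p = 0.0458) and nearly the same without Flavourzyme, -2.75. MAL11, an alpha-glucoside carrier gene, had 8.26 in maltose wort with Flavourzyme, against 10.53 and 10.78 in glucose wort (difference -2.39, adjusted p = 0.044), and -1.27 without. These were the 2 genes called among 10 for maltose, isomaltose and sucrose use (median -0.86), both lower (1.1% over all genes). The maltose permease gene MAL31 was not called with Flavourzyme, at 12.34 in maltose wort, against 12.51 and 12.42 in glucose wort, and was called higher in maltose wort without it (1.11, adjusted p = 0.0311).

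Of 27 glucose sensing and repression genes, 4 were called lower and 1 higher with Flavourzyme (1.1% and 1.81% over all genes). Of the 27, 18 lay below both glucose arrays (32.6% over all genes), and the median was -1.10. SKS1, a kinase gene used in adaptation to low glucose, had 7.59 in maltose wort with Flavourzyme, against 12.35 and 12.31 in glucose wort (difference -4.74, SE 0.717, adjusted p = 0.0458), and it differed by -3.60 without Flavourzyme. STD1, which encodes a regulator of hexose transporter transcription, had 8.16, against 10.67 and 10.70 in glucose wort (difference -2.52, adjusted p = 0.044), and -2.38 without. Both therefore kept the wort difference. MIG2, a gene for a glucose-dependent repressor, was called with Flavourzyme at -1.99 (5.61 in maltose wort, against 7.62 and 7.57 in glucose wort) and not called without it at -0.34, though the difference of the wort effects did not pass (adjusted p = 0.0819). The hexokinase gene HXK1 was lower by -1.63 (adjusted p = 0.0458), and HXK2, whose product also acts in glucose repression, missed the threshold at -3.01 (adjusted p = 0.0561). SIP4, an activator of gluconeogenic genes, was the member called higher. SIP4 had 8.74 in maltose wort, against 5.93 and 6.40 in glucose wort (difference 2.58, adjusted p = 0.044). The largest positive difference of the list, 3.34, was that of another member, which was not called. Past the fold limit 2 of the 27 were higher and 8 lower (7.45% and 3.89% over all genes).

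**Figure D2:**
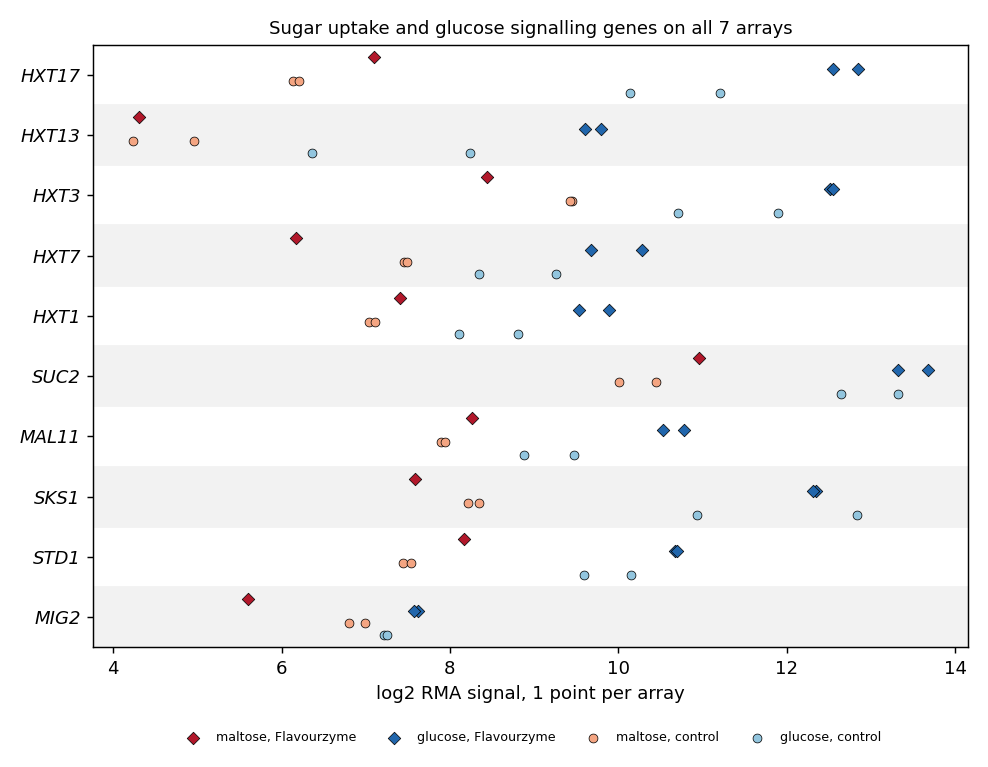
Log2 signal of 10 sugar uptake and glucose signalling genes, with 1 point per array: red and dark blue diamonds are maltose and glucose wort with Flavourzyme, orange and pale blue circles are maltose and glucose wort without it. The maltose array with Flavourzyme lies left of both glucose arrays with Flavourzyme for every gene shown, for HXT17 at 7.10 against 12.55 and 12.84.

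Respiratory and chaperone genes were on the lower side too. Over all genes 1.1% were called lower with Flavourzyme, 9.81% were called lower without it, and 32.6% lay below both glucose arrays. The last of these shares was 41.8% after the repeated quantile normalization and 42% after centring. Of 36 genes of the respiratory chain and ATP synthase, 3 were called lower with Flavourzyme, none higher, and 27 lay below both glucose arrays (median -0.50), while 19 were called lower without it (median -0.75). NDE1, the external NADH dehydrogenase gene, had 9.76 in maltose wort with Flavourzyme, against 11.80 and 11.93 in glucose wort (difference -2.11, adjusted p = 0.044). CYC1, the gene of iso-1-cytochrome c, had 11.70, against 13.39 and 13.59 (difference -1.78, adjusted p = 0.0455), and without Flavourzyme its difference was -3.87. The third was INH1, the gene of an ATP synthase inhibitor, at -1.40. Outside the list, SUE1, involved in the degradation of unstable cytochrome c, had 10.46, against 13.16 and 13.12 (difference -2.68, adjusted p = 0.0373). The fumarase gene FUM1 was the only member of 16 genes of the tricarboxylic acid cycle that was called with Flavourzyme (difference -1.72, adjusted p = 0.044), and 12 of the 16 lay below both glucose arrays.

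Of 27 heat shock protein and chaperone genes, 3 were called lower with Flavourzyme (1.1% over all genes) and none higher. Of the 27, 21 lay below both glucose arrays (32.6% over all genes), and the median was -0.51, against -0.56 without Flavourzyme. SSE1, a gene of the Hsp110 family that serves Hsp70, had 9.35 in maltose wort with Flavourzyme, against 12.29 and 12.47 in glucose wort (difference -3.03, SE 0.437, adjusted p = 0.044). The Hsp90 partner gene CPR6 was lower by -1.92 and the Hsp70 gene SSA2 by -1.91. SSE1 and CPR6 were also called lower without Flavourzyme, and SSA2 was not (-0.05). Outside the list, the J-domain protein genes APJ1 (-2.44) and JID1 (-2.38) were called lower in both comparisons. HSP12, a small membrane-associated stress protein gene, went the other way in value without being called, at 14.47 in maltose wort, against 13.30 and 13.12 in glucose wort (adjusted p = 0.302).

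Further genes that were lower in maltose wort with and without Flavourzyme came from several pathways. GSY1, a glycogen synthase gene, had 10.30 in maltose wort with Flavourzyme, against 13.00 and 12.72 in glucose wort, and differed by -2.56 with Flavourzyme and -2.66 without it. DLD3, a D-lactate dehydrogenase gene, had 9.49, against 12.76 and 12.31, and the difference was -3.05 with Flavourzyme and -3.04 without it. ATO2, a gene of the ammonium and acetate transporter family, differed by -3.65 and -2.68 in the same order. GLN1, the glutamine synthetase gene, had 10.46 in maltose wort with Flavourzyme, against 13.06 and 12.32 in glucose wort, with differences of -2.23 (adjusted p = 0.0458) and -2.26. The difference of the wort effects was 0.10 for GSY1, -0.01 for DLD3 and 0.03 for GLN1. GIT1, a glycerophosphoinositol carrier gene of the phosphate response, also kept its difference (-2.37 and -2.44).

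On the higher side, 6 of 14 genes of anaerobic growth were called in both comparisons. Of these 14 genes for anaerobic mannoproteins and sterol import, none was called lower with Flavourzyme, 11 lay above both glucose arrays, and the median was 1.64, against 0.24 over all genes. Without Flavourzyme 10 were called higher and 1 lower, the median was 1.33, and 10 of the 14 had the same sign with and without it. Over all genes 1.81% were called higher with Flavourzyme, 18.7% were called higher without it, and 55.7% lay above both glucose arrays. TIR4, a cell wall mannoprotein gene of anaerobic growth, had 13.12 in maltose wort with Flavourzyme, against 10.27 and 10.28 in glucose wort with Flavourzyme, and 12.67 and 12.59 in maltose wort, against 10.01 and 9.67 in glucose wort, without it. Its difference was 2.84 (7.18-fold, SE 0.247, adjusted p = 0.0317) with Flavourzyme and 2.79 without. TIR1 had 13.42, against 11.65 and 11.53 in glucose wort (difference 1.82, adjusted p = 0.044), and 2.14 without. TIR3 had 10.70, against 8.20 and 8.51 (difference 2.35, adjusted p = 0.0458), and 1.45 without.

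PDR11, which encodes an ABC transporter for sterol uptake, had 11.96 in maltose wort with Flavourzyme, against 8.51 and 8.56 in glucose wort (difference 3.43, SE 0.588, adjusted p = 0.0494). HES1, an oxysterol-binding protein gene, had 8.95, against 5.85 and 5.63 (difference 3.21, adjusted p = 0.044). SET4, a gene for a SET domain protein active under low oxygen, had 7.24, against 3.96 and 4.17, so both glucose values were within the range of the S. pombe probe sets (at least 4.07-fold higher when set against that range, adjusted p = 0.0258). All of these were called higher without Flavourzyme as well, by 1.81, 1.73 and 3.06 for PDR11, HES1 and SET4. HES1 missed the threshold after the repeated quantile normalization, at an adjusted p of 0.0502. DAN1, another anaerobic mannoprotein gene, was the member called lower without Flavourzyme (-1.22), and with it had 9.08 in maltose wort, against 7.57 and 7.96 in glucose wort (difference 1.31, adjusted p = 0.0602).

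Of 25 ergosterol genes 1, the lanosterol synthase gene ERG7, was called higher with Flavourzyme, which is near the share over all genes. ERG7 had 10.98 in maltose wort, against 9.32 and 9.21 in glucose wort (difference 1.72, adjusted p = 0.044). The list median was 0.67, 22 of the 25 lay above both glucose arrays (55.7% over all genes), and 6 of the 25 by more than the fold limit (7.45% over all genes). Of 32 cell wall genes, PST1, a GPI-anchored protein gene, was the one called (1.81% called higher over all genes). PST1 had 12.81 in maltose wort with Flavourzyme, against 10.15 and 10.10 in glucose wort (difference 2.69, adjusted p = 0.0494), and 1.59 without. Other genes called higher in both comparisons were MSH1, needed for mitochondrial DNA repair (2.14 and 1.88), XYL2, a xylitol dehydrogenase gene (1.79 and 1.49), CRF1, a corepressor of ribosomal protein genes (2.19 and 1.65), and ORC5, of the origin recognition complex (1.57 and 1.96).

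**Figure D3:**
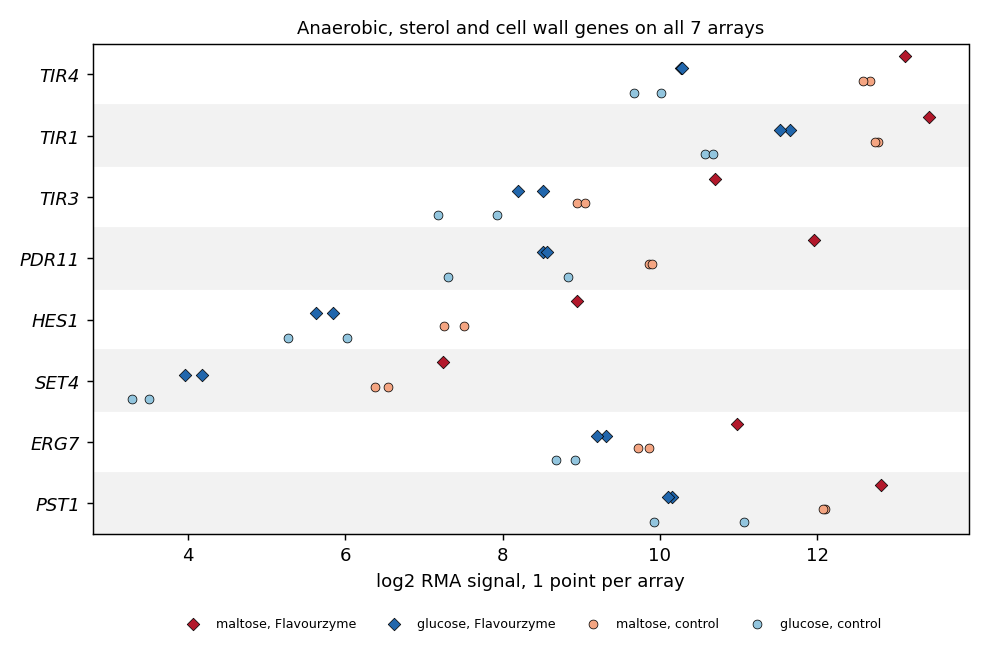
Log2 signal of 8 anaerobic, sterol and cell wall genes, with 1 point per array and the same symbols as for the sugar genes. The maltose array with Flavourzyme lies right of both glucose arrays with Flavourzyme for each gene, and for TIR4 the 3 maltose arrays lie between 12.59 and 13.12 and the 4 glucose arrays between 9.67 and 10.28.

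A test of the difference of the wort effects asked directly which genes responded to the syrup unequally with and without the enzyme. It passed for 2 genes, 0.0355% of those tested, and 1076 genes had an unadjusted p under 0.05. This count moved far with the processing: it was 167 after the repeated quantile normalization, 50 with a trend of the spread on the mean, and between 0 and 2200 when 1 array was left out. The first of the 2 genes was PUT1, which encodes proline oxidase, the mitochondrial enzyme of the first step of proline breakdown. PUT1 had 12.79 in maltose wort with Flavourzyme, against 13.47 and 13.28 in glucose wort with Flavourzyme, and 7.67 and 7.95 in maltose wort, against 13.81 and 13.58 in glucose wort, without it. Only the 2 maltose controls were low. The wort difference was -0.59 with Flavourzyme (adjusted p = 0.183) and -5.89 without it (adjusted p = 0.00122), and these differed by 5.30 (adjusted p = 0.0305). PUT2, the gene of the following step in proline breakdown, had 11.78 in maltose wort with Flavourzyme, against 10.89 and 11.04 in glucose wort, and was not called in any of the 3 contrasts.

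The other gene was FLO9, which encodes a lectin-like flocculin of the cell surface. FLO9 had 10.58 in maltose wort with Flavourzyme, against 5.14 and 4.95 in glucose wort with Flavourzyme, and 5.58 and 5.35 in maltose wort, against 4.85 and 5.33 in glucose wort, without it. A single array was high, and the 6 others lay between 4.85 and 5.58, with both glucose Flavourzyme arrays below the 95th percentile of their own S. pombe probe sets. Where a group is that low, its level is only a bound, and a fold is taken against that percentile. On that reading FLO9 was at least 41.3-fold higher in maltose wort with Flavourzyme. The wort difference was 5.54 with Flavourzyme (SE 0.295, adjusted p = 0.0119), 0.37 without it, and the 2 differed by 5.17 (adjusted p = 0.0374, and 0.0538 after the arrays were centred). The probe set of FLO9 is of a kind that can bind several transcripts. YAL065C, an open reading frame that neighbours FLO9 and resembles flocculin genes, showed a like pattern, with 11.61 in maltose wort with Flavourzyme, against 4.44 and 4.99 in glucose wort (at least 83.9-fold higher, adjusted p = 0.0258), although its difference of the wort effects did not pass (5.92, adjusted p = 0.0614). FLO1 stayed within the range of the S. pombe probe sets on all arrays. FLO11, a mucin-like flocculin gene, went the other way: it had 8.73 in maltose wort with Flavourzyme, against 13.65 and 13.31 in glucose wort (difference -4.75, adjusted p = 0.044), and was also lower without Flavourzyme (-2.29). Because the FLO9 value rests on 1 array without a replicate, no repeat of it can be shown.

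**Figure D4:**
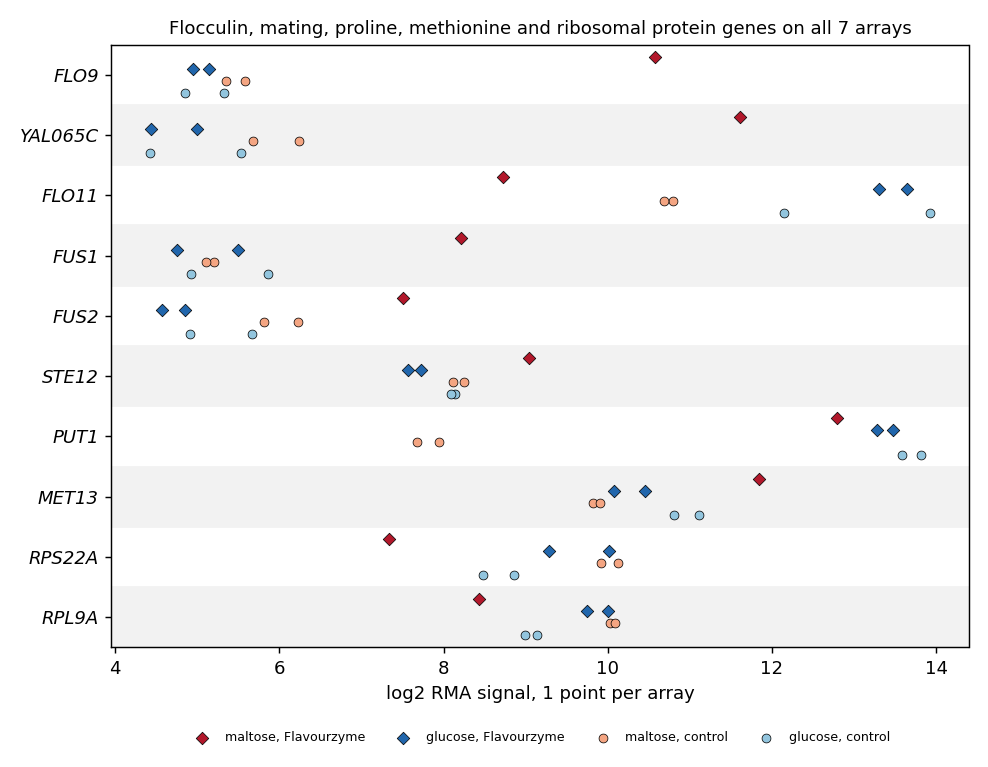
Log2 signal of 10 flocculin, mating, proline, methionine and ribosomal protein genes, with 1 point per array and the same symbols as for the sugar genes. For FLO9 and YAL065C the maltose array with Flavourzyme stands alone at 10.58 and 11.61, and for PUT1 the 2 maltose arrays without Flavourzyme stand alone at 7.67 and 7.95.

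Some mating genes were called higher in maltose wort with Flavourzyme. Of 24 mating and pheromone response genes, 4 were called higher (1.81% over all genes) and none lower. Of the 24, 22 lay above both glucose arrays (55.7% over all genes). The median was 0.98, against 0.50 without Flavourzyme, where 6 were called higher (18.7% over all genes). FUS1, a cell fusion gene, had 8.21 in maltose wort with Flavourzyme, against 5.50 and 4.76 in glucose wort (difference 3.08, adjusted p = 0.0458), and -0.23 without. One glucose value of FUS1 and both of FUS2 lay in the S. pombe range. FUS2 had 7.50, against 4.85 and 4.57 (at least 4.87-fold higher, adjusted p = 0.044). STE12, which encodes the transcription factor of the pheromone response, had 9.04, against 7.72 and 7.56 (difference 1.39, adjusted p = 0.0458), and STE6, the a-factor exporter gene, had 9.64, against 7.85 and 8.05 (difference 1.69, adjusted p = 0.0458). None of these 4 was called without Flavourzyme. The difference of the wort effects was not called for any of them, with adjusted p-values of 0.0888 for FUS1, 0.121 for FUS2, 0.106 for STE12 and 0.0938 for STE6.

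Other genes called higher with Flavourzyme and not without it included PBI1, with 13.14 in maltose wort, against 8.79 and 8.76 in glucose wort (difference 4.37, adjusted p = 0.0486), and the peroxiredoxin gene TSA2, with 12.15, against 9.17 and 8.96 (difference 3.08, adjusted p = 0.044). All 3 values of PBI1 and TSA2 were well above the S. pombe range. Neither PBI1 nor TSA2 passed the test of the difference of the wort effects. Of 16 genes of peroxisomal fatty acid oxidation none was called by limma in either comparison. With Flavourzyme 13 of the 16 lay above both glucose arrays and none below both (55.7% and 32.6% over all genes). The median of the 16 was 0.69, against 0.08 without Flavourzyme.

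Ribosomal protein and aminoacyl-tRNA synthetase genes showed the opposite pattern, with many genes called without Flavourzyme and few with it. Over all genes 18.7% were called higher and 9.81% lower without Flavourzyme, and 1.81% and 1.1% with it. A short list with 0 calls with Flavourzyme is therefore near the share over all genes. Of 129 cytoplasmic ribosomal protein genes, none was called higher with Flavourzyme and 3 were called lower. Of the 129, 49 lay above both glucose arrays and 59 below both (55.7% and 32.6% over all genes). Past the fold limit 0 were higher and 10 lower (7.45% and 3.89% over all genes). The median was -0.07, against 0.24 over all genes. Without Flavourzyme 99 of them were called higher, none lower, and the median was 1.24. Probe sets that can bind several transcripts read 25 of these genes, many of which exist as near-identical pairs. The median with Flavourzyme ranged between -0.26 after the arrays were centred and 0.025 without glucose Flavourzyme array 1. Of 71 mitochondrial ribosomal protein genes, none was called with Flavourzyme and 40 were called higher and 1 lower without it, and the medians were 0.09 and 1.14. Of 13 mitochondrial aminoacyl-tRNA synthetase genes, none was called with Flavourzyme and 11 were called higher without it, with medians of -0.05 and 1.24. Of 20 cytoplasmic synthetase genes, none was called with Flavourzyme and 9 were called higher without it, with medians of 0.06 and 0.85. None of these genes passed the test of the difference of the wort effects in the deposited scaling. After the repeated quantile normalization it passed for 24 of the 129 cytoplasmic ribosomal protein genes, all lower, for 1 mitochondrial ribosomal protein gene and for 1 synthetase gene of each kind, where 83 genes in all were higher and 84 lower. With a trend of the spread on the mean it passed for 13 cytoplasmic ribosomal protein genes, and after centring for none. The contrast between the medians is a description. The pattern did not extend to 65 ribosome biogenesis genes, of which 1 was called higher and 3 lower without Flavourzyme. Their medians were 0.05 with Flavourzyme and -0.20 without it. Of 20 RNA polymerase I and III subunit genes, 3 were called higher without Flavourzyme, near the share over all genes.

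RPS22A, a gene of the small ribosomal subunit, had 7.34 in maltose wort with Flavourzyme, against 10.01 and 9.28 in glucose wort with Flavourzyme, and 9.92 and 10.13 in maltose wort, against 8.86 and 8.48 in glucose wort, without it. It was called lower with Flavourzyme (-2.31, adjusted p = 0.0458) and higher without it (1.36, adjusted p = 0.0268). RPL9A (-1.44 and 1.00) and RPL9B (-1.95 and 1.06), the paired genes of 1 protein of the large subunit, did the same. For RPS22A and RPL9A the difference of the wort effects had an adjusted p of 0.0614, and for RPL9B of 0.0661. In all, 11 of the 164 genes called with Flavourzyme were called in the opposite direction without it, 4 higher and 7 lower with Flavourzyme, and MET13 was among the 4. MET13, a methylenetetrahydrofolate reductase gene of methionine synthesis, had 11.84 in maltose wort with Flavourzyme, against 10.08 and 10.45 in glucose wort (difference 1.58, adjusted p = 0.0494), and -1.10 without Flavourzyme.

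**Figure D5:**
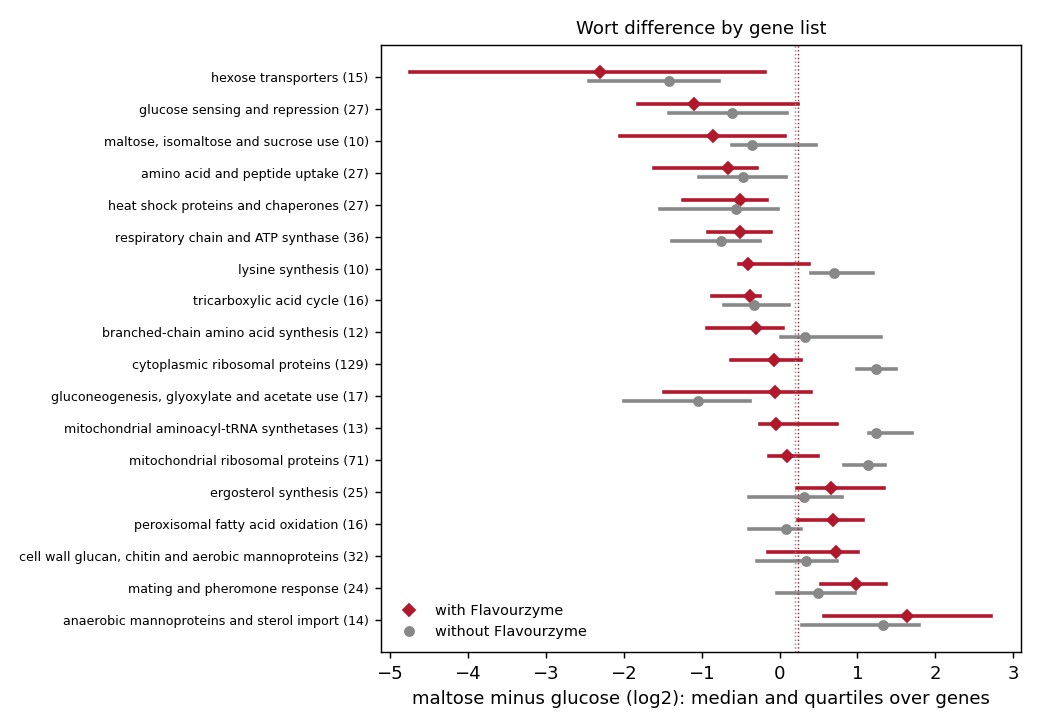
Maltose minus glucose difference (log2) for 18 gene lists, with the number of genes measured in brackets: red diamonds are medians with Flavourzyme, grey circles are medians without it, bars span the quartiles over the genes of a list, and dotted lines mark the medians over all genes. Hexose transporters (-2.30 and -1.42) and anaerobic genes (1.64 and 1.33) lie on the same side with and without Flavourzyme, and the cytoplasmic ribosomal proteins lie at -0.07 with it and 1.24 without it.

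Few amino acid genes passed the test with Flavourzyme, but many uptake genes lay below both glucose arrays. Of 27 genes of amino acid and peptide uptake, limma called none with Flavourzyme, while 23 lay below both glucose arrays (32.6% over all genes) and 7 of them by more than the fold limit (3.89% over all genes), and the median was -0.66. The 5 lowest differences were those of DIP5, a permease gene for acidic amino acids (-3.53), the branched-chain permease genes BAP2 (-3.20) and BAP3 (-2.96), AGP2 (-2.84) and the broad-range permease gene AGP1 (-2.64). BAP2 had 8.79 in maltose wort with Flavourzyme, against 11.76 and 12.21 in glucose wort (adjusted p = 0.16), but its glucose controls were 8.21 and 11.68. AGP2 had 7.39, against 10.54 and 9.91 in glucose wort (adjusted p = 0.0727), and was called lower without Flavourzyme (-3.97). The di- and tripeptide carrier gene PTR2 had 11.55, against 12.52 and 12.76 (difference -1.09, adjusted p = 0.0613), and was also called lower without Flavourzyme (-2.47).

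Among synthesis genes, HIS1, the gene of the first step of histidine synthesis, was called lower with Flavourzyme. HIS1 had 8.06 in maltose wort, against 9.94 and 9.93 in glucose wort (difference -1.87, SE 0.224, limma adjusted p = 0.044), and differed by -0.18 without Flavourzyme. The difference of the wort effects did not pass for HIS1 (limma adjusted p = 0.0794). Of 12 branched-chain genes none was called by limma with Flavourzyme and 4 were called higher without it (18.7% over all genes, medians -0.31 and 0.32). Of 10 lysine genes the counts were likewise 0 and 4 (medians -0.40 and 0.70). ILV3, of branched-chain synthesis, had 9.59 in maltose wort with Flavourzyme, against 10.46 and 10.38 in glucose wort, and 11.68 and 11.60 in maltose wort, against 10.21 and 10.49 in glucose wort, without it. Its difference was -0.84 with Flavourzyme (adjusted p = 0.0919) and 1.29 without, and the difference of the wort effects had an adjusted p of 0.0651. Of 33 genes that the study names in its account of transcription, 4 were called higher and 1 lower with Flavourzyme (1.81% and 1.1% over all genes). The study chose them on these arrays, so they are no independent evidence. The 5 were MET13, YCR016W, SLD2, a gene of replication initiation, RME1, a repressor gene of meiosis, and HIS1.

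Genes of gluconeogenesis and acetate use lay between these patterns. Of 17, ACH1, which encodes an acetyl-CoA hydrolase, was the one called lower with Flavourzyme (1.1% over all genes). ACH1 had 11.29 in maltose wort, against 13.41 and 12.93 in glucose wort (difference -1.88, adjusted p = 0.0458). Without Flavourzyme 8 of the 17 were called lower (9.81% over all genes). The medians were -0.06 with Flavourzyme and -1.05 without it. ACS1, the gene of an acetyl-CoA synthetase, had 12.32 in maltose wort with Flavourzyme, against 12.39 and 12.37 in glucose wort, and 10.05 and 10.08 in maltose wort, against 12.09 and 12.49 in glucose wort, without it. Its wort difference was called without Flavourzyme (-2.23, adjusted p = 0.00716) and not with it (-0.06, adjusted p = 0.883). The difference of the wort effects for ACS1 had an adjusted p of 0.0715.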

How the data were processed

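The deposited values are log2 signals per probe set. The authors processed the scans with MAS5 and normalized them by RMA with the affy package in R, with versions not given in the sources used here. RMA subtracts background and forces all arrays to 1 distribution over S. cerevisiae and S. pombe probe sets together, so a shift in one set moves the other. No scanner files were used, and all sample columns entered the fit (0 left out).

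A linear model with 1 mean per group was fitted to all 7 arrays with limma 3.58.1 in R 4.3.3, leaving 3 residual degrees of freedom (prior 2.78), all from the 3 duplicated groups. The spread of the maltose Flavourzyme wort, with its 1 array, is taken to be like theirs. The contrasts were maltose minus glucose with Flavourzyme, the same without it, and their difference. P-values were adjusted by Benjamini-Hochberg over 5635 genes, with 0.05 as the limit for a call. Probe sets naming several genes (46), S. pombe genes (4916), controls (213) and none (68) were left out.

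The rule for named genes took the 10 called genes with the largest difference in each direction, up to 4 members of each of 47 gene lists with the smallest p, the genes called in both wort comparisons with the largest smaller difference (10 in each direction), those called for the difference of the wort effects, and those the study names. Outside it, ACS1, AGP1, BAP2, BAP3, DAN1, DIP5, FLO1, HSP12, HXK1, HXK2, HXT1, HXT2, HXT5, JID1, MAL31, PUT2 and TIR3 were named after their values were seen. Members and lists were chosen with earlier results of these data known. Alternatives were another scaling, filters on low and shared probe sets, other variance models, a replicate block and each array left out. Promoter motifs were not searched.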

Additional observations from a re-analysis of the deposited data

Results flagged for a closer look

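For 2 genes the wort effect differed between fermentations with and without Flavourzyme by the interaction term of the limma fit. For PUT1 the difference of the wort effects was 5.30 on the log2 scale (adjusted p = 0.0305), and the adjusted p over all settings lay between 0.00138 and 0.361. For FLO9 it was 5.17 (adjusted p = 0.0374), with a range of 0.00138 to 0.434, and it rests on 1 unreplicated array and a probe set that can bind several transcripts.

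The rRNA probe sets, which enter no gene comparison, carried signal above the S. pombe range, with a mean of 9.61 on the maltose Flavourzyme array, against 13.2 and 12.2 on glucose Flavourzyme arrays 1 and 2. The part of this difference in the gene results was not tested.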

How the results depend on the processing

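Counts are given for maltose against glucose wort with Flavourzyme (164), without it (1609), the difference of the wort effects (2) and genes called in both comparisons in the same direction (87). Quantile normalization over S. cerevisiae probe sets gave 353, 1786, 167 and 171, and centring the arrays gave 91, 1529, 1 and 55. Without shared probe sets the difference had 1 call, and with a trend of the spread on the mean 50. The linear model without moderation called 14, 581, 1 and 10. With the arrays of each comparison alone, 2071, 485 and 189 were called. With both the adjusted p and the fold limit, 758 genes were called without Flavourzyme. Genes past the fold limit on the higher side (420) numbered 235 after quantile normalization and 257 after centring. With the spread estimated without the glucose control group, an alternative chosen after seeing the data, 3049 genes were called with Flavourzyme. Leaving out 1 array at a time gave 0 to 3049 genes with Flavourzyme, 1 to 3720 without it, 0 to 2200 for the difference and 0 to 2115 in both. The lowest counts came without a maltose control or glucose Flavourzyme array and the highest without a glucose control array; the smallest adjusted p with Flavourzyme was then 0.0917 without either maltose control, and 0.226 and 0.22 without glucose Flavourzyme arrays 1 and 2. The cause of these changes was not tested. With a replicate block the counts were 0, 1494, 0 and 0 (smallest adjusted p with Flavourzyme 0.0592). Deviations of same-numbered arrays correlated at 0.00736, 0.182 and 0.102 in the 3 pairs of groups. These values cannot show whether same-numbered samples share more than a number. The maltose Flavourzyme array has no duplicate and does not enter them.

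Other variance models, fits on fewer groups and fits without a control array leave the differences unchanged, so no sign could turn in them. In the remaining settings, all of the 164 genes that were tested kept the sign of their difference. No called difference of a named gene reversed there. A tally was taken for genes named by the size of a called difference, by calls in both comparisons or by the difference of the wort effects. Of their values under alternatives, 303 kept their side of the threshold, 202 lost the call and 3, all of PUT1, gained it. Genes named only as list members, from the study or after their values were seen did not enter this tally. With 1 maltose array the comparison has no replicate check of its own, and signals in the S. pombe range have no order.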

Other observations

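Genes of meiosis and the cell cycle had a few calls on the higher side with Flavourzyme by limma, where 1.81% of all genes were called higher and 7.45% lay past the fold limit above both glucose arrays. Of 34 meiosis and sporulation genes, RME1 and SSP2 were called higher and 8 lay past the fold limit. Of the 34, 25 lay above both glucose arrays (55.7% over all genes), and the median was 0.49, against 0.24 over all genes. In both Flavourzyme groups 8 of the 34 were below 4.95, where signals have no order. The mean of SSP2 in glucose wort with Flavourzyme was also that low, at 4.37. Of 38 genes of the kinetochore, spindle and anaphase-promoting complex, the kinetochore gene MIF2 (1.47) and the spindle pole body gene CNM67 (1.38) were called higher and 6 lay past the fold limit (median 0.50). Of 33 histone and DNA replication genes SLD2 (1.78) and SLD3 (1.34), both of replication initiation, were called higher and 2 lay past the fold limit (median 0.45).

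In the lists that follow, calls are to be read against 1.81% of all genes called higher and 1.1% called lower with Flavourzyme. Of 21 phosphate response genes, SPL2 (1.71) was called higher and VTC1 (-1.49) and GIT1 (-2.37) lower. FAA1, an acyl-CoA synthetase gene, was the member of 13 fatty acid genes called, at -1.83, and EHT1, of ethyl ester formation, the member of 17 higher alcohol and ester genes called, at -1.75. Glycolysis and alcoholic fermentation (23 genes, median 0.11) and the proteasome (33 genes, median -0.05) had no gene past the threshold and none past the fold limit against both glucose arrays. The 16 vacuolar and cytosolic peptidase genes had no call with Flavourzyme and a median of 0.45, against 0.39 without it.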
